A study of Saccharomyces cerevisiae with 26 samples.

Results

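A set of 10 budding yeast genes that carry glucose to pyruvate and pyruvate to acetaldehyde was followed across every strain and medium of an RNA sequencing study of a histone H3 mutant. The genes are HXK1 (YFR053C), HXK2 (YGL253W), PFK1 (YGR240C), PFK2 (YMR205C), FBA1 (YKL060C), TDH3 (YGR192C), PGK1 (YCR012W), ENO2 (YHR174W), CDC19 (YAL038W) and PDC1 (YLR044C). The genes are a fixed list of identifiers of pathway enzymes, drawn up with earlier results of these data known though by a rule that uses no measured value, and are 10 of the 6692 open reading frames in the count table. All 10 had enough counts to be tested in every comparison.

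The study replaced the alanine at position 110 of histone H3 with cysteine (H3A110C) and asked how this changes cells that lack glutathione synthesis or a copper-binding protein. Polyadenylated RNA was sequenced from whole cells after 2 to 3 doublings, in 26 libraries of 8 groups. In SCEG, a synthetic medium with ethanol and glycerol as carbon sources, the groups were H3A110Ccup1F8* and cup1F8* with 4 libraries each, and H3A110Cgsh1Δ, gsh1Δ, H3A110C and WT with 3 each. In SC, the same kind of medium with glucose, H3A110C and WT had 3 libraries each.

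Every strain is MATa his3Δ1 leu2Δ0 met15Δ0 ura3Δ0 and descends from one WT strain, derived from BY4741, whose histone gene HHT2 had been removed and put back. The WT is thus itself a modified strain. H3A110C carries the substitution in both histone H3 genes, HHT1 and HHT2. The gsh1Δ strains have GSH1, the gene of the first enzyme of glutathione synthesis, replaced by KanMX6, and the cup1F8* strains have a stop codon at residue 8 of the metallothionein Cup1. No label says whether the libraries of a group came from separate cultures, and the methods speak of independent experiments, so a p-value measures the spread between these libraries.

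Glycolysis splits glucose into pyruvate. Hexokinase, phosphofructokinase and pyruvate kinase run in one direction only, whereas aldolase, glyceraldehyde-3-phosphate dehydrogenase, phosphoglycerate kinase and enolase also run backwards when a cell on ethanol or glycerol builds sugar. Pyruvate decarboxylase opens the branch to ethanol, the main fate of glucose in fermenting yeast. In glucose many of these genes are driven by the transcription factors Gcr1, Gcr2, Tye7 and Rap1, and their messengers are among the most abundant of the cell.

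Stretches of sequence upstream of start codons are shown for 4 of the members, read from the R64 assembly, the release to which the authors aligned their reads. Capitals mark the letters CTTCC, the core bound by Gcr1, or AGGGG, the core of the stress response element, on either strand (GGAAG and CCCCT on the other strand). The first pair compares the hexokinase isoenzymes, whose levels moved apart in the cup1F8* strains, over bases 600 to 301 before the start codon. In HXK1 only AGGGG is marked, although the stretch also holds 3 matches to CTTCC, left in lower case. In HXK2 both motifs were looked for and neither occurs. The second pair gives CDC19 (bases 400 to 101) and PGK1 (bases 600 to 301), with CTTCC marked, the member that fell most between media and the member with the most matches to CTTCC. The CDC19 stretch also holds 1 match to AGGGG, left in lower case.
HXK1 (chrVI:255350-255649, minus strand): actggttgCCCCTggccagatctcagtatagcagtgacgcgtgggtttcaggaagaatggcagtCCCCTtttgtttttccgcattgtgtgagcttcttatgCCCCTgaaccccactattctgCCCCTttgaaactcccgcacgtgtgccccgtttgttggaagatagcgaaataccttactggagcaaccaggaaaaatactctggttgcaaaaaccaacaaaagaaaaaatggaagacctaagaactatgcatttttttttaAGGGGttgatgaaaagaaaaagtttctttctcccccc
HXK2 (chrVII:23335-23634, plus strand): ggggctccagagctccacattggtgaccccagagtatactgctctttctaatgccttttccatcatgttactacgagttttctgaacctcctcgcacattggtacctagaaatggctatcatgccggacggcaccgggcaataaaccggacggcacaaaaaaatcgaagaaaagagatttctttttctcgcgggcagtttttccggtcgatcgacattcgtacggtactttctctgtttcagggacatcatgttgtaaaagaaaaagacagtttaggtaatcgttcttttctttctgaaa
CDC19 (chrI:71386-71685, plus strand): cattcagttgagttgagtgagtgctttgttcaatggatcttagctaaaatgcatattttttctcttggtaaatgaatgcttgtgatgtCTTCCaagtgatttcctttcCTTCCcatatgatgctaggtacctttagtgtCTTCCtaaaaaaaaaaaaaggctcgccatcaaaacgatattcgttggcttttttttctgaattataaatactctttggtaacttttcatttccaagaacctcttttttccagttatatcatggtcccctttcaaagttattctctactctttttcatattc
PGK1 (chrIII:137146-137445, plus strand): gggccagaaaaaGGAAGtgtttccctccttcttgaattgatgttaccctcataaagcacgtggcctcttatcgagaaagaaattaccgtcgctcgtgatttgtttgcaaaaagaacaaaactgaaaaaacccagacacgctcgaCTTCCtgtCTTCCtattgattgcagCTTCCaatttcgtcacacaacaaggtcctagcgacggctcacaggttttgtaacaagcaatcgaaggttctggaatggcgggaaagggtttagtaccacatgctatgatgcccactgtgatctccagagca

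Over the 600 bases before the start codon, HXK1 holds 5 matches to AGGGG and HXK2 none, while 39.7% of 5999 such windows hold at least 1 and 2.43% hold 3 or more. TDH3 holds 3 matches, PGK1, CDC19 and PDC1 hold 1 each, and PFK1, PFK2, FBA1 and ENO2 none. CTTCC occurs 5 times before PGK1, 4 times before HXK1, 3 times each before PFK2, ENO2 and CDC19, 2 times each before PFK1 and PDC1 and once before FBA1, and is not found before HXK2 or TDH3. At least 1 match to CTTCC is present in 72.9% of all windows and at least 3 in 15.6%. The letters CTTCC and AGGGG can share at most their ends, and matches of each were counted on both strands. A match describes these letters in this window and nothing more.

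The coding sequences lie on 8 chromosomes, and all but those of 3 members are unique in the genome at the scale of a read. HXK1 runs from 253592 to 255049 on chromosome VI, HXK2 from 23935 to 25395, TDH3 from 882812 to 883810 and PFK1 from 970771 to 973734 on chromosome VII, PFK2 from 671887 to 674766 on chromosome XIII and FBA1 from 326408 to 327487 on chromosome XI. PGK1 runs from 137746 to 138996 on chromosome III, ENO2 from 451327 to 452640 on chromosome VIII, CDC19 from 71786 to 73288 on chromosome I and PDC1 from 232390 to 234081 on chromosome XII. Of the 50-base windows of TDH3, 75.6% occur once in the genome, and of those of ENO2 76.4%. TDH1 and TDH2 are close copies of TDH3, and ENO1 of ENO2. The share is 99% for PDC1 and 100% for the other 7 members. How the authors' counting divided reads between such copies is not given in the sources used here, so the values of TDH3 and ENO2 and of their copies are uncertain to that extent.

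Gene counts summed to 9428849 to 12305863 for each SC library and to 2917138 to 10133258 for each SCEG library. The smallest SCEG totals were those of the libraries without cup1F8*, from 2917138 to 6013267. Levels below are CPM, counts of a gene relative to the total of its library (in units of 1e6 counts), scaled by edgeR's TMM factor over all 26 libraries. On this scale 3 counts correspond to at most 1.01 CPM, a floor that covers counting error only and that every member exceeded by far. GSH1 had 0 counts in all 6 libraries of the gsh1Δ strains and 107 to 198 CPM in the other 20. The gluconeogenic genes FBP1 and PCK1 were at 1072 to 1343 and 2940.3 to 5580.4 CPM in SCEG and at 3.48 to 6.23 and 4.86 to 9.16 CPM in SC, in H3A110C and WT together. The sample descriptions hold an S number, and these numbers recur between the SC libraries, the SCEG libraries without cup1F8* and the libraries of the cup1F8* strains but never within one of these sets. No source used here says what the sets are. If they were handled apart, medium and set, and cup1F8* and set, cannot be told apart, whereas H3A110Ccup1F8* and cup1F8* lie in the same set. Counts are shares of a library, and less of a messenger in every cell cannot be told apart from fewer cells that carry it.

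The SC groups each held 1 library unlike the others, both under the column letter B. The chi-square per gene against the other libraries was 122 and 144.5 in H3A110C and 100.1 and 106 in WT, where the remaining pair of libraries gave 3.71 in H3A110C and 9.64 in WT. Among the members HXK1 differed most in these libraries, and the comparisons that use SC are given also without both. In SCEG, H3A110Cgsh1Δ replicate 2 gave 41.1 and 22.5 against the other libraries of its group, which gave 5.65 between themselves, and the members' results that it changed are given without it.

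**Figure D1:**
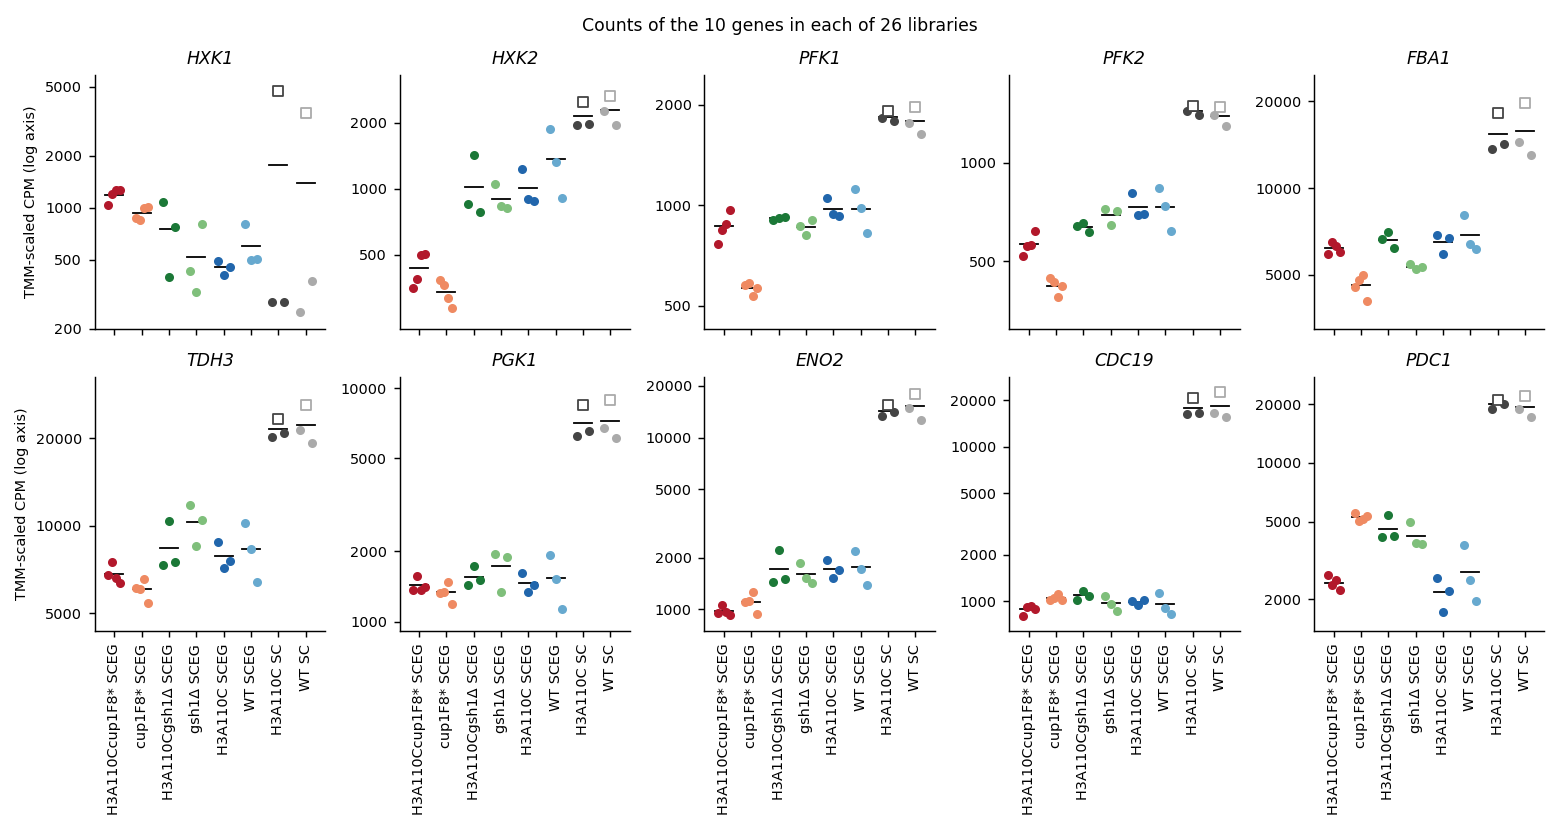
CPM of each member (log axis) in each library, by group, with the mean as a line. Open squares are the SC libraries under letter B, in which HXK1 stands at 4713 CPM in H3A110C and 3546 CPM in WT, and CDC19 in all SC libraries lies above every SCEG library.

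The first comparison asked how the pathway differs between growth on ethanol with glycerol and growth on glucose. The members made up 2.13% to 3.17% of all counts in the 20 SCEG libraries and 7.89% to 10.3% in the 6 SC libraries. In H3A110C 9 of the 10 members fell in SCEG and in WT 8 of 10, by edgeR's quasi-likelihood test (Benjamini-Hochberg adjusted p below 0.05), and none rose. Adjusted p-values below come from the same test, and SE is the standard error of a log2 fold change. Among all genes tested, 23.4% fell and 23.8% rose in H3A110C, and 25.3% fell and 25.6% rose in WT. The members' median log2 fold change was -1.65 in H3A110C and -1.26 in WT, where the median of all genes was 0.01 in H3A110C and 0.00 in WT. H3A110C and WT each have their own SC and SCEG libraries in these comparisons.

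CDC19, the main pyruvate kinase, fell most. In H3A110C it had 998, 942 and 1013 CPM in SCEG, against 16192, 20723 and 16602 CPM in SC. In WT it had 1137, 898 and 824 CPM in SCEG and 16429, 22565 and 15582 CPM in SC. The media did not overlap in either strain, as was the case for 58.9% of all genes in H3A110C and 60.7% in WT. The log2 fold change was -4.12 (SE 0.14, adjusted p = 4.85e-06) in H3A110C, or 17.3-fold lower, and -4.20 (SE 0.21, adjusted p = 2e-05) in WT, or 18.4-fold lower.

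ENO2, the enolase more abundant than ENO1 on glucose, and PDC1, the major pyruvate decarboxylase, followed. ENO2 had 1934, 1519.9 and 1689 CPM in SCEG and 13384, 15535 and 14078 CPM in SC in H3A110C, and 2201, 1729.8 and 1394 CPM in SCEG and 14917, 18004 and 12591 CPM in SC in WT. Its log2 fold change was -3.00 (adjusted p = 1.17e-05) in H3A110C and -3.04 (adjusted p = 7.44e-05) in WT. PDC1 had 2578, 1713 and 2211 CPM in SCEG against 18808, 21010.0 and 19959 CPM in SC in H3A110C, and 3779, 2520.1 and 1967 CPM in SCEG against 18790.2, 22029 and 17234 CPM in SC in WT. No SCEG library reached any SC library for either gene, and the log2 fold change of PDC1 was -3.14 (adjusted p = 2.69e-05) in H3A110C and -2.76 (adjusted p = 0.000214) in WT.

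PGK1, TDH3 and FBA1 fell less. PGK1, phosphoglycerate kinase, was at 1139 to 1939.9 CPM in the 6 SCEG libraries of both strains and at 6103 to 8915 CPM in SC, with log2 fold changes of -2.21 (adjusted p = 7.44e-05) in H3A110C and -2.19 (adjusted p = 0.000398) in WT. TDH3, the most abundant glyceraldehyde-3-phosphate dehydrogenase, was at 6389 to 10213 CPM in SCEG and 19216 to 25980.0 CPM in SC, with a log2 fold change of -1.39 (adjusted p = 0.000192) in H3A110C and -1.36 (adjusted p = 0.0014) in WT. FBA1, aldolase, was at 5928 to 8088 CPM in SCEG and 12962 to 19766 CPM in SC, with a log2 fold change of -1.17 (adjusted p = 0.000729) in H3A110C and -1.14 (adjusted p = 0.00248) in WT. The ranges of the media were separate for all 3 genes.

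PFK1 and PFK2, the subunits of phosphofructokinase, fell less still, and by nearly the same amount as each other. PFK1 fell with a log2 fold change of -0.85 (adjusted p = 0.000428) in H3A110C and -0.83 (adjusted p = 0.00237) in WT. PFK2 fell with a log2 fold change of -0.91 (adjusted p = 0.000409) in H3A110C and -0.88 (adjusted p = 0.00152) in WT. Over these members alone, from PFK1 and PFK2 through FBA1, TDH3, PGK1 and ENO2 to CDC19, the fall in WT grew in pathway order. PFK1 and PFK2, parts of the same enzyme, have no order in the pathway and differed by less than the SE of either value. In H3A110C the order of these 7 genes was the same. PDC1, the step after CDC19, fell less than CDC19, HXK2 in H3A110C fell more than PFK1, and the enzymes PGI1, TPI1 and GPM1, which are not among the 10 genes, did not follow the order either.

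HXK2, the hexokinase that also takes part in glucose repression, had 1231, 900.2 and 878 CPM in SCEG and 1954, 2488 and 1983 CPM in SC in H3A110C, and 1879, 1330.1 and 909 CPM in SCEG and 2266, 2665 and 1968 CPM in SC in WT. It fell in H3A110C with a log2 fold change of -1.03 (adjusted p = 0.00263), and its value in WT was -0.69 (adjusted p = 0.0615), although the media did not overlap there. DESeq2's Wald test called 9 members in WT, HXK2 among them. Over all genes it called 1511 higher and 1562 lower of 5816, against 1487 higher and 1471 lower in edgeR. Without WT SCEG replicate 1 edgeR called HXK2 at -0.98, where 1213 genes were higher and 1207 lower of 5928.

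HXK1, the isoenzyme that is low on glucose, had the widest spread of the members in SC and depended on the SC libraries under letter B. It had 494, 406 and 453 CPM in SCEG and 285, 4713 and 283 CPM in SC in H3A110C, and 803, 497 and 506 CPM in SCEG and 249, 3546 and 375 CPM in SC in WT, where the second SC value of each strain is library B. The log2 fold change was -1.90 (SE 1.08, adjusted p = 0.191) in H3A110C and -1.16 (SE 0.95, adjusted p = 0.349) in WT. Without both B libraries it was 0.73 (adjusted p = 5.54e-05) in H3A110C and 0.99 (adjusted p = 0.00918) in WT, higher in SCEG in both. The other members kept their direction without these libraries, with log2 fold changes between -3.99 and -0.83 in H3A110C and between -4.02 and -0.58 in WT, and HXK2 in WT again did not pass. The members called then numbered 10 in H3A110C and 9 in WT, where 33.7% of all genes were higher and 32% lower in H3A110C and 33.2% higher and 32.1% lower in WT.

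**Figure D2:**
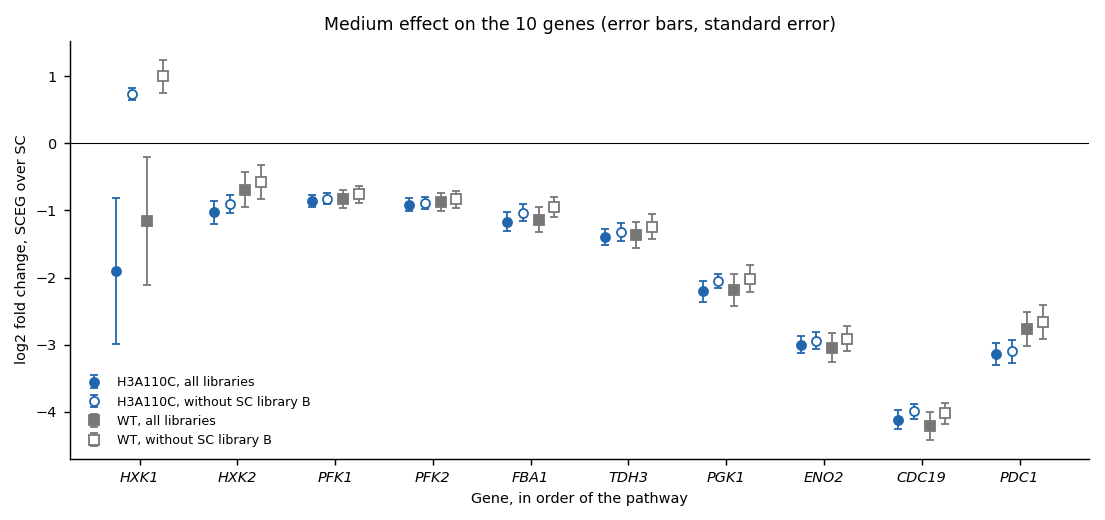
Log2 fold change of each member in SCEG over SC (y axis, error bars are standard errors), for H3A110C and WT, with all libraries (filled) and without the SC libraries under letter B (open). HXK1 lies at -1.90 and -1.16 with all libraries and at 0.73 and 0.99 without them, in H3A110C and WT, and CDC19 is the lowest at -4.12 and -4.20.

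Other genes of the pathway showed which steps moved with the members. Of 11 further enzymes, 4 fell and 1 rose in each strain, with a median log2 fold change of -1.15 in H3A110C and -1.34 in WT. GPM1, the phosphoglycerate mutase, had a log2 fold change of -4.05 (adjusted p = 7.89e-06) in H3A110C and -4.25 (adjusted p = 2.2e-05) in WT, near the values of CDC19. TPI1, triosephosphate isomerase, PGI1, phosphoglucose isomerase, and TDH2 fell with log2 fold changes of -1.41, -1.09 and -1.98 in H3A110C and with -1.42, -1.16 and -2.15 in WT. PDC6, a minor pyruvate decarboxylase, rose with a log2 fold change of 2.86 in H3A110C and 2.86 in WT, with levels of 8.93 to 22.4 CPM in SCEG and 1.56 to 2.40 CPM in SC.

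The alcohol dehydrogenases split. ADH2, the isoenzyme that consumes ethanol, was at 2116 to 3283 CPM in SCEG and 3.79 to 8.15 CPM in SC, with a log2 fold change of 8.56 (adjusted p = 8.31e-06) in H3A110C and 9.29 (adjusted p = 1.7e-06) in WT. The mitochondrial ADH3 rose with a log2 fold change of 1.18 in H3A110C and 1.21 in WT, and ADH1, which makes ethanol, fell with a log2 fold change of -1.73 in H3A110C and -1.84 in WT.

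Of 9 regulators, 4 fell and none rose in H3A110C, and 5 fell and 1 rose in WT. The transcription factor genes GCR1 and TYE7 fell with log2 fold changes of -0.84 and -0.89 in H3A110C and with -0.96 and -1.06 in WT. MIG1, a repressor active on glucose, fell with a log2 fold change of -1.26 in H3A110C and -1.20 in WT, and PFK27, which makes the activator of phosphofructokinase, with a log2 fold change of -3.93 in H3A110C and -3.59 in WT. GCR2 had a log2 fold change of -0.29 (adjusted p = 0.113) in H3A110C and fell in WT, at -0.35 (adjusted p = 0.0361). PFK26, also a maker of that activator, had a log2 fold change of 0.57 (adjusted p = 0.192) in H3A110C and rose in WT, at 0.80 (adjusted p = 0.0406). In WT the call of GCR2 was lost in 4 of the 6 omissions of 1 library and that of PFK26 in 5 of 6, with log2 fold changes of -0.43 to -0.28 for GCR2 and 0.64 to 1.13 for PFK26. Without the SC libraries under letter B every gene of these lists that had passed still did, and GLK1, ENO1, PYK2, ADH5 and FBP26 passed as well in both strains, with log2 fold changes for GLK1, glucokinase, of 1.57 (adjusted p = 1.57e-07) in H3A110C and 1.48 (adjusted p = 1.81e-05) in WT.

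When libraries were scaled by total counts in place of TMM, the median log2 fold change of all genes stood at 0.22 in H3A110C and 0.20 in WT. The calls over all genes were then 1948 higher and 838 lower in H3A110C, against 1381 higher and 1354 lower with TMM, and 2000 higher and 966 lower in WT, against 1487 higher and 1471 lower with TMM. The counts of members that fell were the same under both scalings, 9 in H3A110C and 8 in WT.

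Within SC the histone substitution was then set against WT, and no member passed. Over all genes 0.0174% were higher in H3A110C and 0% lower. The members' log2 fold changes ran from -0.09 for HXK2 to 0.38 for HXK1, with a median of -0.02 beside 0.01 for all genes. HXK1 had an SE of 1.50, with the B library of each strain high. Before adjustment, edgeR's p was below 0.05 for 12 higher and 12 lower genes, none of them a member, and DESeq2 called 1 gene higher, 1 lower and no member. Without the B libraries no member passed either, and HXK1 stood at a log2 fold change of -0.15 (adjusted p = 0.998). FBA1, TDH3 and CDC19 were also on the other side of 0 without them, at 0.016, 0.007 and 0.024.

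In SCEG the comparison gave 0 of 10 members as well, with 0.0176% of all genes higher and 0.0176% lower. HXK1 was at 494, 406 and 453 CPM in H3A110C and 803, 497 and 506 CPM in WT, groups that do not overlap (10.4% of all genes), with a log2 fold change of -0.41 (adjusted p = 0.77). HXK2 had a log2 fold change of -0.45 (adjusted p = 0.871) and PDC1 -0.34 (adjusted p = 0.938), with overlapping groups. The members' median was -0.07, beside 0.00 for all genes, and the highest value was 0.05, for CDC19. Before adjustment, 146 higher and 194 lower genes had a p below 0.05, with 1 member lower, HXK1, and none higher, and DESeq2 called 12 genes higher and 15 lower with no member among them. With the replicate number as a block edgeR called 38 genes higher and 60 lower of 5671, again with no member among them.

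The difference of the H3A110C effect between SCEG and SC was tested by an interaction term. No gene was called by edgeR, 0% higher and 0% lower. Before adjustment, 50 higher and 62 lower genes had a p below 0.05, with no member among them, and DESeq2 called 1 gene higher and none lower. The members' differences in log2 fold change ran from -0.79 for HXK1, whose SE was 1.60, to 0.07 for CDC19. Without the B libraries no member passed.

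Loss of GSH1 was set against WT in SCEG, and no member passed, although 12.5% of all genes were higher and 12.8% lower. The study reports that gsh1Δ and H3A110Cgsh1Δ did not grow on ethanol with glycerol unless glutathione was supplied. Its methods for RNA sequencing do not say whether glutathione was added. The members' log2 fold changes ran from -0.60 to 0.63 with a median of -0.10, where the median of all genes was 0.02. PDC1 had 4990.0, 3874 and 3821 CPM in gsh1Δ and 3779, 2520.1 and 1967 CPM in WT. The lowest gsh1Δ library stood just above the highest WT library, groups being separate for 42.3% of all genes, and the log2 fold change was 0.63 (SE 0.22, adjusted p = 0.0571).

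HXK2 and FBA1 lay on the other side. HXK2 had 1049, 830.2 and 815 CPM in gsh1Δ and 1879, 1330.1 and 909 CPM in WT, groups that overlap, with a log2 fold change of -0.60 (adjusted p = 0.0715). FBA1 had 5465, 5252 and 5319.7 CPM in gsh1Δ and 8088, 6419 and 6128 CPM in WT, groups that do not overlap, with a log2 fold change of -0.35 (adjusted p = 0.0966). TDH3 had a log2 fold change of 0.32 (adjusted p = 0.262). A p below 0.05 before adjustment was given to 1 member that was higher and 2 that were lower, among 1108 higher and 1079 lower genes. DESeq2's Wald test called these 3 members, PDC1 higher and HXK2 and FBA1 lower, among 607 higher and 730 lower genes. In edgeR, PDC1 passed without WT replicate 1, at 0.92, and HXK2 without WT replicate 3, at -0.82.

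Of the 11 further enzymes 5 rose, 1 fell and 5 did not pass, the last with log2 fold changes between 0.01 for TPI1 and 0.16 for TDH2. TDH1, a glyceraldehyde-3-phosphate dehydrogenase, had 1292, 1184 and 1636 CPM in gsh1Δ and 432, 251 and 349 CPM in WT, and rose with a log2 fold change of 2.01 (adjusted p = 4.79e-05). ENO1 rose with a log2 fold change of 1.24 (adjusted p = 0.000868) and PDC6 with 2.65 (adjusted p = 7.83e-05), PDC6 with 73.4, 113 and 88.8 CPM in gsh1Δ and 22.4, 12.1 and 8.93 CPM in WT. Every gsh1Δ library exceeded every WT library for all 3 genes. GLK1, glucokinase, rose with a log2 fold change of 0.68 and GPM1 with 0.55, and PDC5 fell with a log2 fold change of -0.64; each of these 3 calls was lost in 3 or 4 of the 6 omissions of 1 library. ADH2 fell with a log2 fold change of -1.04 and ADH3 with -0.37 (lost in 3 of 6 omissions), and among the regulators MIG1 rose with a log2 fold change of 0.68 and TYE7 with 0.62.

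When H3A110C was added to gsh1Δ, no member was called, with 0.264% of all genes higher and 0.58% lower. HXK1 had 1079, 397 and 775 CPM in H3A110Cgsh1Δ and 429.9, 324 and 807 CPM in gsh1Δ, wide and overlapping groups, with a log2 fold change of 0.52 (adjusted p = 0.549). FBA1 had 6650.1, 7016 and 6186 CPM in H3A110Cgsh1Δ and 5465, 5252 and 5319.7 CPM in gsh1Δ, groups that do not overlap (22% of all genes), with a log2 fold change of 0.30 (adjusted p = 0.227). TDH3 had the lowest value, -0.30 (adjusted p = 0.455). The members' median was 0.11 beside 0.00 for all genes. A p below 0.05 before adjustment was given to 1 member, FBA1, among 451 higher and 441 lower genes, and DESeq2 called 95 genes higher and 113 lower with no member among them. Of the further enzymes, alcohol dehydrogenases and regulators none was called. Without H3A110Cgsh1Δ replicate 2, 485 genes were higher and 533 lower of 5715, against 15 higher and 33 lower of 5690 with it, and TDH3 passed as lower, at a log2 fold change of -0.48.

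Within the H3A110C background, PDC1 alone among the members rose with loss of GSH1, where 4.59% of all genes were higher and 4.03% lower. PDC1 had 4171, 5399.8 and 4209 CPM in H3A110Cgsh1Δ and 2578, 1713 and 2211 CPM in H3A110C, separate groups (28.4% of all genes), and a log2 fold change of 1.07 (SE 0.17, adjusted p = 0.00675), or 2.10-fold. HXK1 had a log2 fold change of 0.72 (adjusted p = 0.188), and without H3A110Cgsh1Δ replicate 2 it passed at 1.04, where 906 genes were higher and 840 lower of 5714, against 261 higher and 229 lower of 5685 with it. The members' median was 0.04, beside -0.01 for all genes, and the lowest value was that of PFK2, -0.22 (adjusted p = 0.204). TDH1 rose with a log2 fold change of 1.61, ENO1 with 1.28 and PDC6 with 2.36, and ADH5 and ADH3 fell with log2 fold changes of -0.96 and -0.38, the call of ADH3 being lost in 5 of 6 omissions.

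The gsh1Δ effects on PDC1 in H3A110C and in WT used separate libraries, and their difference did not pass. The interaction of H3A110C with gsh1Δ called none of the members, with 0.226% of all genes higher and 0.139% lower, and none of them had a p below 0.05 before adjustment. The differences in log2 fold change ran from -0.21 for TDH3 to 0.94 (adjusted p = 0.42) for HXK1, with 0.63 (adjusted p = 0.478) for HXK2. Before adjustment, 428 higher and 376 lower genes had a p below 0.05. Without H3A110Cgsh1Δ replicate 2 the interaction called 150 genes higher and 143 lower, against 13 higher and 8 lower with it. DESeq2 called 79 genes higher and 82 lower, with no member among them.

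The cup1F8* strain differed from WT in 8 of the 10 members, with 2 higher and 6 lower, where 34.3% of all genes were higher and 34.8% lower. HXK2 fell furthest and PDC1 rose furthest. The members' median log2 fold change was -0.56, beside 0.00 for all genes. The difference between cup1F8* and WT cannot be told apart from that between their sets of S numbers. Groups were separate for 68.4% of all genes.

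The hexokinases moved apart. HXK2 had 381, 365, 317 and 286 CPM in cup1F8* and 1879, 1330.1 and 909 CPM in WT, and was 4.20-fold lower, with a log2 fold change of -2.07 (SE 0.20, adjusted p = 9.35e-06). HXK1 had 875, 849.8, 994 and 1007 CPM in cup1F8* and 803, 497 and 506 CPM in WT and was 1.50-fold higher, with a log2 fold change of 0.58 (SE 0.16, adjusted p = 0.00722). For both genes every cup1F8* library lay outside the WT range. Counts of HXK1 over those of HXK2, a gene of nearly equal coding length (1458 and 1461 bases), came to 2.29 to 3.52 in cup1F8* and 0.374 to 0.557 in WT.

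The phosphofructokinase genes and the next steps fell together. PFK1 had 577, 585, 533 and 565 CPM in cup1F8* and 1118, 978 and 825 CPM in WT, with a log2 fold change of -0.83 (adjusted p = 2.65e-05), and PFK2 446, 432, 389 and 421 CPM in cup1F8* and 841, 741 and 618 CPM in WT, with a log2 fold change of -0.84 (adjusted p = 2.87e-05). FBA1 was at 4073 to 5017 CPM in cup1F8* and 6128 to 8088 CPM in WT, with a log2 fold change of -0.62 (adjusted p = 0.00072). ENO2 was at 945 to 1257 CPM in cup1F8* and 1394 to 2201 CPM in WT, with a log2 fold change of -0.73 (adjusted p = 0.00121). Groups were separate for these 4 genes, while TDH3, which fell with a log2 fold change of -0.51 (adjusted p = 0.0091), overlapped, at 5419.7 to 6555 CPM in cup1F8* and 6389 to 10213 CPM in WT. PGK1 had a log2 fold change of -0.25 (adjusted p = 0.172) and CDC19 0.10 (adjusted p = 0.404), and they passed at -0.42 without WT replicate 3 (PGK1) and at 0.24 without WT replicate 1 (CDC19).

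At the end of the pathway PDC1 rose. It had 5557, 5029.7, 5146 and 5370.5 CPM in cup1F8* and 3779, 2520.1 and 1967 CPM in WT, separate groups, with a log2 fold change of 0.89 (SE 0.18, adjusted p = 0.00137), or 1.86-fold. The other pyruvate decarboxylases fell, with log2 fold changes of -0.67 for PDC5 and -1.16 for PDC6, and so did all 4 alcohol dehydrogenases. ADH1 had 900.2, 784, 927 and 885 CPM in cup1F8* and 2964, 2539 and 2402 CPM in WT, with a log2 fold change of -1.64 (adjusted p = 1.75e-07), and ADH3 had a log2 fold change of -1.77 (adjusted p = 3.28e-08).

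Of the 11 further enzymes 6 rose and 4 fell. TDH1 had 1985, 1965, 2375 and 2003 CPM in cup1F8* and 432, 251 and 349 CPM in WT, with a log2 fold change of 2.55 (adjusted p = 5.78e-07), and ENO1 rose with a log2 fold change of 1.71 (adjusted p = 4.83e-06). PYK2, the minor pyruvate kinase, rose with a log2 fold change of 1.20, GLK1 with 1.07, EMI2, a glucokinase homolog, with a log2 fold change of 0.96 and GPM1 with 0.69, whereas TDH2 fell with a log2 fold change of -1.07 and PGI1 with -0.39. Among the regulators FBP26, which breaks down the activator of phosphofructokinase, rose with a log2 fold change of 1.23, MIG1 with 0.62 and PFK26 with 0.50, and PDC2, an activator of PDC1 transcription, and GCR2 fell with log2 fold changes of -0.43 and -0.24. GCR1, with a log2 fold change of 0.15 (adjusted p = 0.163), did not pass.

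Addition of H3A110C to cup1F8* changed 8 of the 10 members, 5 higher and 3 lower, where 24.6% of all genes were higher and 25.9% lower. The members' median log2 fold change was 0.23, beside -0.01 for all genes. This comparison shares its cup1F8* libraries with the one before it. In a single fit of all 26 libraries, which share an estimate of the spread, 4 members passed, and HXK1, HXK2, ENO2 and CDC19 did not. Calls over all genes fell too in that fit, to 893 higher and 749 lower of 6069, against 1453 higher and 1529 lower of 5906. Groups were separate for 45.7% of all genes.

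PDC1 fell most. It had 2659, 2356, 2498 and 2218 CPM in H3A110Ccup1F8* and 5557, 5029.7, 5146 and 5370.5 CPM in cup1F8*, far apart, with a log2 fold change of -1.15 (SE 0.07, adjusted p = 1.09e-07), or 2.22-fold lower. ENO2 and CDC19 fell by less. CDC19 had 800.1, 914, 933 and 894 CPM in H3A110Ccup1F8* and 1022, 1054, 1119.7 and 1020.0 CPM in cup1F8*, separate groups, with a log2 fold change of -0.28 (adjusted p = 0.00145). ENO2 had 948, 1063, 964 and 935 CPM in H3A110Ccup1F8* and 1102, 1117, 1257 and 945 CPM in cup1F8*, overlapping groups, with a log2 fold change of -0.21 (adjusted p = 0.0395), a call lost in 6 of the 8 omissions of 1 library.

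The members from hexokinase to aldolase rose. PFK1 had 767, 844, 879.5 and 971 CPM in H3A110Ccup1F8* and 577, 585, 533 and 565 CPM in cup1F8*, with a log2 fold change of 0.58 (adjusted p = 2.29e-05). PFK2 was at 521 to 621 CPM in H3A110Ccup1F8* and 389 to 446 CPM in cup1F8*, with a log2 fold change of 0.39 (adjusted p = 0.000231), and FBA1 at 5926 to 6523 CPM in H3A110Ccup1F8* and 4073 to 5017 CPM in cup1F8*, with a log2 fold change of 0.39 (adjusted p = 0.000592). The groups were separate for these 3 genes. HXK1 had 1039, 1198, 1268 and 1258 CPM in H3A110Ccup1F8* and 875, 849.8, 994 and 1007 CPM in cup1F8*, with a log2 fold change of 0.32 (adjusted p = 0.00344). HXK2 had 352, 386, 496 and 504 CPM in H3A110Ccup1F8* and 381, 365, 317 and 286 CPM in cup1F8*, overlapping groups, with a log2 fold change of 0.33 (adjusted p = 0.0338), a call lost in 4 of 8 omissions, those of replicates 3 and 4 of either group, at 0.25 to 0.31. TDH3 and PGK1, at 0.14 (adjusted p = 0.121) and 0.07 (adjusted p = 0.437), did not pass.

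**Figure D3:**
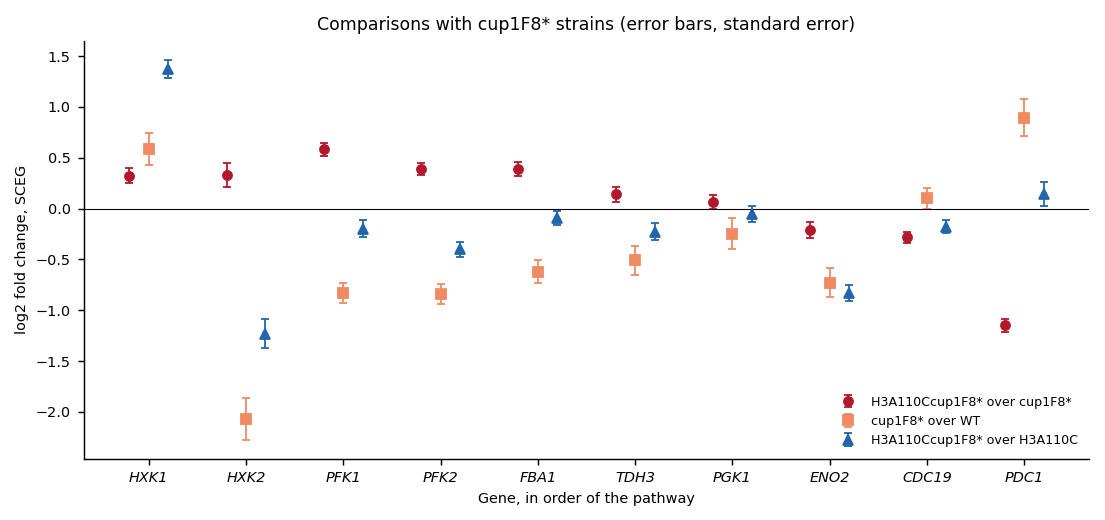
Log2 fold change of each member (y axis, error bars are standard errors) in SCEG for H3A110Ccup1F8* over cup1F8*, cup1F8* over WT, and H3A110Ccup1F8* over H3A110C. PDC1 lies at -1.15 in the first comparison and 0.89 in the second, and HXK2 at 0.33 and -2.07.

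All 4 alcohol dehydrogenases rose when H3A110C was added to cup1F8*. ADH1 had 2062, 2328, 2104 and 2091 CPM in H3A110Ccup1F8* and 900.2, 784, 927 and 885 CPM in cup1F8*, with a log2 fold change of 1.26 (adjusted p = 3.67e-08), and ADH3 679, 724, 774 and 796 CPM in H3A110Ccup1F8* and 322, 318, 320.1 and 307 CPM in cup1F8*, with a log2 fold change of 1.20 (adjusted p = 2.01e-08). Among the further enzymes 4 fell on the log2 scale, TDH1 with -0.98, ENO1 with -0.68, GPM1 with -0.41 and PYK2 with -0.40, and 2 rose, PDC6 with 0.48 and TDH2 with 0.30. TYE7, PFK26 and PDC2 rose with log2 fold changes of 0.51, 0.30 and 0.24, and RAP1 and MIG1 fell with log2 fold changes of -0.36 and -0.22. Of these calls, those of PDC6, ADH5 and MIG1 were lost in 4 or 5 of 8 omissions.

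Set against H3A110C in the same medium, H3A110Ccup1F8* differed in 7 members, 1 higher and 6 lower, with a median log2 fold change of -0.19 beside 0.01 for all genes, where 35.1% of all genes were higher and 33.9% lower. HXK1 had 1039, 1198, 1268 and 1258 CPM in H3A110Ccup1F8* and 494, 406 and 453 CPM in H3A110C, and was 2.60-fold higher, with a log2 fold change of 1.38 (adjusted p = 1.02e-07). HXK2 had 352, 386, 496 and 504 CPM in H3A110Ccup1F8* and 1231, 900.2 and 878 CPM in H3A110C, with a log2 fold change of -1.23 (adjusted p = 1.03e-05), and ENO2 fell with a log2 fold change of -0.83 (adjusted p = 2.36e-06). These groups were separate, as were those of 68.5% of all genes. PFK2, TDH3, PFK1 and CDC19 fell with log2 fold changes of -0.40, -0.23, -0.20 and -0.18, with adjusted p of 0.000568, 0.0278, 0.049 and 0.0318. In the fit of all 26 libraries HXK2, PFK2 and ENO2 passed, and HXK1, TDH3, PFK1 and CDC19 did not. That fit takes in the SC libraries, where the SD of log2 CPM of HXK1 was 2.34 in H3A110C and 2.06 in WT. In SCEG this SD was 0.13 in H3A110Ccup1F8* and 0.14 in H3A110C. Without H3A110Ccup1F8* replicate 1, 4 members passed, where 1956 genes were higher and 1882 lower of 5790. The fit of all 26 libraries called 1937 genes higher and 1736 lower of 6069, against 2062 higher and 1989 lower of 5873. The call of PFK1 was lost without H3A110Ccup1F8* replicate 1, 2 or 3 or H3A110C replicate 1, that of TDH3 without H3A110Ccup1F8* replicate 1, 3 or 4 or H3A110C replicate 1, and that of CDC19 without H3A110Ccup1F8* replicate 1 or 4 or H3A110C replicate 3.

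PDC1, FBA1 and PGK1 had log2 fold changes of 0.14 (adjusted p = 0.278), -0.10 (adjusted p = 0.245) and -0.06 (adjusted p = 0.536) between these strains. With scaling by total counts, which put the median of all genes at 0.12, FBA1 and PGK1 stood at 0.017 and 0.056, on the other side of 0, PDC1 passed at 0.26, and TDH3, PFK1 and CDC19 did not pass. That scaling gave 2445 genes higher and 1601 lower, against 2062 higher and 1989 lower with TMM. For cup1F8* over WT it put the median of all genes at 0.16 and gave 2586 higher and 1617 lower, against 2024 higher and 2054 lower with TMM.

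The effect of H3A110C differed between the cup1F8* background and the WT background for 4 members by the interaction term, 3 higher and 1 lower, where 8.36% of all genes were higher and 7.79% lower. The difference in log2 fold change was 0.58 (SE 0.13, adjusted p = 0.00783) for PFK1. It was 0.74 (SE 0.19, adjusted p = 0.0168) for HXK1, 0.47 (SE 0.14, adjusted p = 0.0309) for FBA1 and -0.80 (SE 0.24, adjusted p = 0.03) for PDC1. HXK2, PFK2 and CDC19 had differences of 0.78 (adjusted p = 0.0645), 0.39 (adjusted p = 0.0548) and -0.33 (adjusted p = 0.0885), and TDH3, PGK1 and ENO2 lay between -0.16 and 0.23. In the fit of all 26 libraries PFK1 alone passed. That fit called 198 genes higher and 173 lower of 6069, against 498 higher and 464 lower of 5954. The call of PDC1 was lost in 9 of the 14 omissions of 1 library, with differences of -1.09 to -0.61 over the 14, and that of FBA1 in 4 of 14, those of WT replicate 1, H3A110C replicate 2 and cup1F8* replicates 1 and 4, with differences of 0.34 to 0.55 over the 14. HXK1 and PFK1 passed in all 14. Leaving out cup1F8* replicate 1 or cup1F8* replicate 4 left 2 members called. Calls over all genes fell too, to 363 higher and 351 lower of 5936 without replicate 1. Without replicate 4 they fell to 385 higher and 355 lower of 5927.

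Coding lengths allow the members to be ranked within a group, as mean CPM per kilobase. TDH3 ranked first, FBA1 second and PFK2 last in all 8 groups. In SC, TDH3 was at 21499.7 ± 1639 CPM per kilobase in H3A110C and 22219 ± 3456 in WT (SD, n = 3), with no library of FBA1 reaching it. CDC19 held place 3 in SC, at 11869 ± 1668 in H3A110C and 12104 ± 2536 in WT, and overlapped FBA1 above it in both and, below it, PDC1 in H3A110C and ENO2 in WT. In SCEG it ranked 7 in H3A110C and WT, at 655 ± 25.1 and 634 ± 109 CPM per kilobase, and overlapped HXK2, one place above, in both.

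PDC1 held place 3 in both strains with cup1F8*, both with gsh1Δ and in WT in SCEG, and place 4 in H3A110C in SCEG, where it overlapped ENO2 above it. HXK1 held place 5 in H3A110Ccup1F8*, at 817 ± 72.6 CPM per kilobase, and 7 in cup1F8*, at 639 ± 55.2, both above HXK2 (SD, n = 4). In the other 6 groups HXK2 ranked above HXK1, and their libraries overlapped in both SC groups and in H3A110Cgsh1Δ.

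Ratios of counts between isoenzymes of nearly equal coding length compare partners within a library and do not depend on scaling between libraries. TDH1 over TDH3 was 0.153 to 0.168 in H3A110Ccup1F8* and 0.323 to 0.370 in cup1F8*, 0.0904 to 0.207 in H3A110Cgsh1Δ and 0.110 to 0.156 in gsh1Δ, and 0.0414 to 0.0612 in H3A110C and 0.0300 to 0.0547 in WT, all in SCEG. ENO1 over ENO2 was 1.89 to 2.02 in H3A110Ccup1F8* and 2.45 to 3.26 in cup1F8*, 0.699 to 1.71 in H3A110Cgsh1Δ and 1.15 to 1.62 in gsh1Δ, and 0.413 to 0.603 in H3A110C and 0.403 to 0.575 in WT. The minor enolase thus outnumbered ENO2 in every library of cup1F8*, H3A110Ccup1F8* and gsh1Δ, and ENO2 outnumbered ENO1 in every library of H3A110C and WT. Both pairs share sequence, as described above.

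PDC6 over PDC1 was 0.00285 to 0.00461 in H3A110Ccup1F8* and 0.00105 to 0.00152 in cup1F8*, and 0.0147 to 0.0292 in gsh1Δ and 0.00454 to 0.00593 in WT. HXK1 over HXK2 was 2.50 to 3.10 in H3A110Ccup1F8*, inside the range of cup1F8*. The 4 ratios were compared in 4 contrasts by two-sided exact permutation tests on their log2 values, 16 tests in all. All 4 ratios reached the smallest p that 4 libraries against 3 allow, 0.0286, for cup1F8* over WT, and 3 of them, all but HXK1 over HXK2, the same smallest p of 4 against 4 for H3A110Ccup1F8* over cup1F8*. Each of these had an exact permutation p of 0.0653 after Benjamini-Hochberg adjustment over the 16 tests. With so few libraries no ratio could fall below 0.05 after that adjustment, so that not passing was settled beforehand and decides nothing. For gsh1Δ over WT the smallest p possible is 0.1, which TDH1 over TDH3, ENO1 over ENO2 and PDC6 over PDC1 reached.

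**Figure D4:**
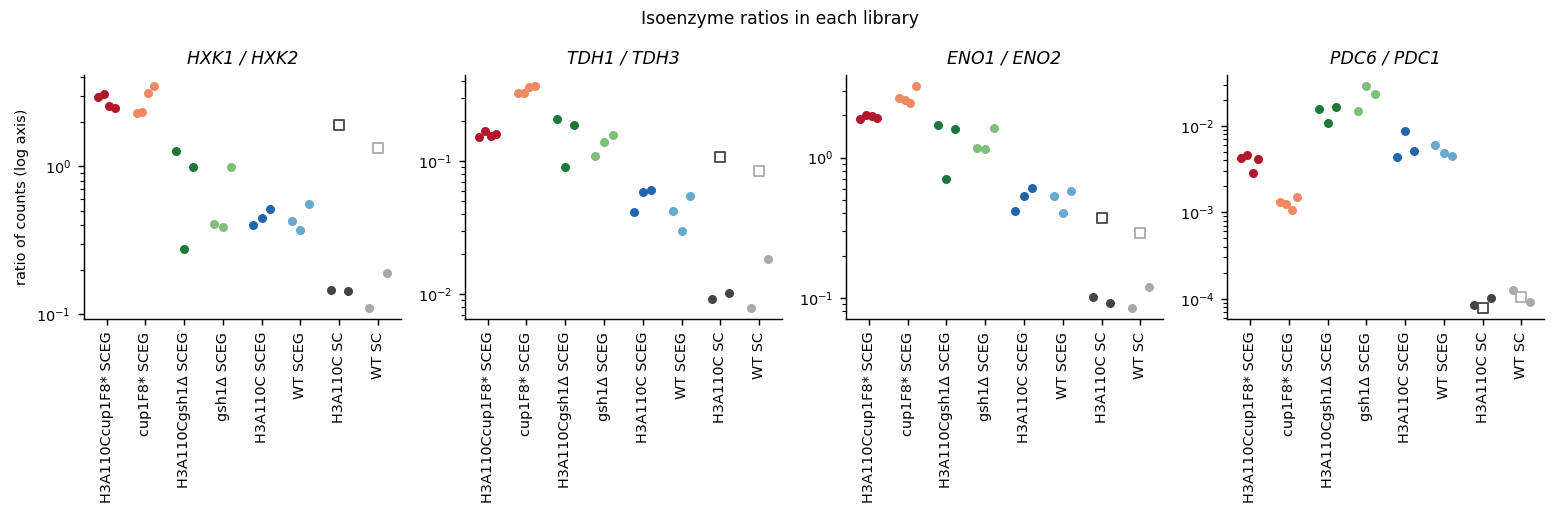
Ratio of counts between isoenzymes (y axis, log scale) in each library, by group, with open squares for the SC libraries under letter B. HXK1 over HXK2 lies between 2.29 and 3.52 in cup1F8* and between 0.374 and 0.557 in WT in SCEG, and PDC6 over PDC1 between 0.00105 and 0.00152 in cup1F8*, below WT.

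The genes whose log2 CPM across the 26 libraries was most like the mean of the 10 members were TPI1 (r = 0.991), PGI1 (r = 0.987), SSE1 (r = 0.980), RGI1 (r = 0.977) and YDL086W (r = 0.975), among 5282 genes with a mean of at least 10 CPM. Those most like HXK1 were YFR052C-A (r = 0.970), CYC7 (r = 0.951), URA8 (r = 0.944), SAP4 (r = 0.915) and YSC84 (r = 0.913). These correlations are a description over libraries that share medium and strain, and those with HXK1 also share the high SC libraries under letter B.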

How the data were processed

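Polyadenylated RNA of the 26 libraries had been sequenced after stranded library construction. The authors used HISAT2 for strand-aware alignment of the reads to R64-1-1 (sacCer3) and featureCounts for counting, and deposited counts for 6692 open reading frames without normalization. Versions and the treatment of reads that match several genes are not given in the sources used here. A table of values the authors had normalized was not used. Groups came from the labels. SCEG columns name their sample and SC columns only group and a letter. The RefSeq annotation of R64 held 6008 of the 6692 identifiers, and supplied names, coordinates and sequence. The files hold no coordinates.

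Each pair of groups was fitted by itself in edgeR 4.0.16 (R 4.3.3, limma 3.58.1) with TMM factors, the default filter on low counts and the quasi-likelihood test, and p-values were adjusted over all genes tested by the Benjamini-Hochberg method and called below 0.05. Interaction terms were fitted over 4 groups. The list of members, which is fixed by identifier, the lists of further enzymes, alcohol dehydrogenases and regulators, and the tests were chosen with earlier results of these data known. All 10 members were named. A gene of the other lists was named where it was called or is an isoenzyme of a member, and genes of like pattern were the 5 with the highest Pearson correlation (prior count 2).

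Alternatives were DESeq2 1.42.0 (Wald test), its size factors in edgeR, total counts, TMM without the members, no filter, at least 10 counts in every library, a single fit of all libraries, a block for the replicate number and the omission of each library in turn. Leaving out both SC libraries under letter B was chosen after seeing the data. In SC, libraries of H3A110C and WT that carry the same column letter deviated from their group means together. Their correlations were 0.67 to 0.908 over 5737 genes, which are not independent. Pairs with different letters ran from -0.859 to 0.801, a range that overlaps that of the same letters. The correlations thus do not show that every letter pairs its samples, and no label gives such a link. With the letter as a block no member was called either.

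In simulated data with 200 genes changed, 3 libraries against 3 recovered 96% of 2-fold and 100% of 4-fold changes with 9 false calls among 5686 genes, modelled on H3A110C over WT in SCEG. The interaction of H3A110C with cup1F8* recovered 83% and 100%, with 14 false calls among 5870 genes. Means and depths came from the data, but the spread was a single fixed value for every gene. Among the members in WT in SCEG the SD of log2 CPM ran from 0.21 for FBA1 to 0.52 for HXK2. The recovered shares therefore do not tell how often a change in a member would be found. Windows, ratios and plots were made in Python 3.11.15 with numpy 2.4.6, pandas 2.3.3 and matplotlib 3.10.9.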

Additional observations from a re-analysis of the deposited data

Results flagged for a closer look

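The effect of H3A110C differed between the cup1F8* and the WT background, by the interaction term in edgeR, for 4 members of the pathway, with differences in log2 fold change of 0.74 (adjusted p = 0.0168) for HXK1, 0.58 (adjusted p = 0.00783) for PFK1, 0.47 (adjusted p = 0.0309) for FBA1 and -0.80 (adjusted p = 0.03) for PDC1. With 1 library left out, the call of PDC1 was lost in 9 of 14 omissions and that of FBA1 in 4 of 14. The same test passed for 7 genes of the other lists. Of the enzymes, TDH1 had a difference of -1.25 (adjusted p = 0.000807), GPM1 -0.53 (adjusted p = 0.022) and ENO1 -0.66 (adjusted p = 0.0277). Of the alcohol dehydrogenases, ADH1 had a difference of 1.16 (adjusted p = 3.89e-05), ADH2 0.78 (adjusted p = 0.00287) and ADH3 1.20 (adjusted p = 4.92e-06), and of the regulators PFK26 had a difference of 0.46 (adjusted p = 0.0332). Of these 7, ENO1 lost its call in 6, PFK26 in 5 and GPM1 in 3 of 14 omissions. Between the gsh1Δ and the WT background the effect differed for ADH2 alone, with a difference of 1.03 (adjusted p = 0.0274), a call lost in 6 of 12 omissions. In the 20 sets of 4 libraries that members and groups give, no library lay apart from the others by Dixon's criterion.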

How the results depend on the processing

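Counts of members called moved with the setting as follows. For gsh1Δ over WT, where none was called, DESeq2's Wald test called 3, the replicate number as a block 2 (HXK2 and PDC1), total counts 1 and the fit of all libraries 1, and leaving out a replicate gave 0 to 1. Over all genes the first of these settings called 607 higher and 730 lower, against 709 higher and 727 lower in the main test. The fit of all libraries also lowered the count for H3A110Ccup1F8* over cup1F8* from 8 to 4, for H3A110Ccup1F8* over H3A110C from 7 to 3 and for the interaction with cup1F8* from 4 to 1. Its calls over all genes were fewer as well in these comparisons, as given above. With 1 replicate left out the counts were 6 to 8, 4 to 8 and 2 to 6 in these 3, 0 to 1 for H3A110Cgsh1Δ over gsh1Δ and 1 to 2 for H3A110Cgsh1Δ over H3A110C, both changed by H3A110Cgsh1Δ replicate 2. Calls over all genes moved with these omissions too.

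The sign turned without the SC libraries under letter B for HXK1, to 0.73 in H3A110C and 0.99 in WT for SCEG over SC and to -0.15 for H3A110C over WT in SC, where FBA1 (0.016), TDH3 (0.007) and CDC19 (0.024), all close to 0 with these libraries, turned as well, as did ENO2 in the interaction with medium (-0.043), and with total counts for FBA1 (0.017) and PGK1 (0.056) in H3A110Ccup1F8* over H3A110C. With 1 library left out, signs turned within these ranges, none of them past the threshold in the main test: HXK1 from -2.41 to 0.73 (H3A110C) and from -1.66 to 0.99 (WT) between media, HXK1 from -2.31 to 2.55 and HXK2 from -0.24 to 0.035 for H3A110C over WT in SC, CDC19 from -0.042 to 0.19 for it in SCEG, PDC1 from -0.011 to 0.26 for H3A110Ccup1F8* over H3A110C, HXK1 from -2.92 to 1.88 and CDC19 from -0.11 to 0.21 in the interaction with medium, and PGK1 from -0.061 to 0.31 in that with cup1F8*. The cause was not tested.

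Same-numbered SCEG libraries did not deviate together throughout (correlations from -0.21 to 0.48), so that the numbers were not taken as pairs. Between H3A110C and WT, however, all were positive, at 0.07 to 0.48, against -0.49 to 0.14 for other pairs. With the replicate block 8 members were called for cup1F8* over WT, where 1870 genes were higher and 1914 lower of 5904. For H3A110Ccup1F8* over cup1F8* the block left 7 members called, with 1324 genes higher and 1415 lower of 5906. For H3A110Ccup1F8* over H3A110C it left 5, with 1858 genes higher and 1776 lower of 5873. No paired analysis was possible between media because the SC columns carry letters. With 3 libraries in most groups, smaller differences may go unseen.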
